A study of Mus musculus with 31 samples.

Results

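Olfactory receptor genes lie in large clusters, and 4 windows of the mouse genome that hold such clusters were described here through the H3K9me3 peaks found in them in primordial germ cells. All coordinates of peaks are of the mm9 build, and the windows were chr2:85000000-90200000, chr9:18500000-20200000 (the proximal chromosome 9 window), chr9:37400000-40200000 (the distal chromosome 9 window) and chr11:73000000-74200000. Every peak of the 9 deposited H3K9me3 lists that overlapped a window was a member, which gave 2226 of the 202624 H3K9me3 peaks. The 18 lists of both marks held 265293 peaks, and 23 H3K27me3 peaks lay in the same windows. By window the H3K9me3 peaks numbered 544 on chromosome 2, 803 in the proximal and 301 in the distal chromosome 9 window, and 578 on chromosome 11.

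Primordial germ cells are the embryonic precursors of eggs and sperm, and the study mapped H3K9me3 and H3K27me3 in them by native ChIP-seq on 1000 sorted cells per reaction, at the time when DNA methylation is being erased. The groups were E13.5 male, E13.5 female and E10.5, where E13.5 and E10.5 are embryonic days, with 3 libraries of each mark in each. All of them were wild type cells of the background C57BL/6 x GOF18delta_PE-EGFP, which carries an EGFP reporter, while E10.5 cells came from a pool of embryos and carry no sex label. The peak lists hold no measure of cell identity, so the labelled cell type was not checked against markers. The lists describe bulk samples, in which fewer cells with a mark and less of the mark per cell cannot be told apart, and nothing in the labels says whether replicates were separate litters.

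H3K9me3 marks heterochromatin and is laid down by SETDB1 and the SUV39H enzymes. It is known for silencing repeats, for covering clusters of zinc finger genes and, in the nose, for covering olfactory receptor clusters, from which each sensory neuron expresses a single receptor gene. H3K27me3 is laid down by the Polycomb complex PRC2 and typically sits at silent promoters rich in CpG dinucleotides.

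The receptor genes belonging to the windows were taken from the RefSeq annotation of GRCm38.p6 as runs of neighbouring genes, since no annotation of mm9 was used here and no gene could be placed on the peak coordinates. The chromosome 2 run stretched between Olfr987 and Olfr1274 and held 293 receptor genes and pseudogenes (222 protein-coding) of the 1428 in the genome. The proximal chromosome 9 run stretched between Olfr24 and Olfr18 and held 51, of which 35 were protein-coding. The distal chromosome 9 run, bounded by Olfr160 and Olfr986, held 127 (95 protein-coding), and the chromosome 11 run, bounded by Olfr20 and Olfr412, held 44 (30 protein-coding). The runs also differed in the genes that share the neighbourhood. The zinc finger gene Zfp317 lay inside the proximal chromosome 9 run, and Zfp558, Zfp560, Zfp26, Zfp426, Zfp266 and Zfp846 were among the 6 nearest other protein-coding genes on either side. The zinc finger genes Zfp735 and Zfp616 lay inside the chromosome 11 run. The distal chromosome 9 run had Zfp202 as its neighbour and the chromosome 2 run had no zinc finger gene inside or among the 6 on either side.

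The 250 bases before the annotated start of 4 of these genes are shown because they display the sequence that receptor genes present in the windows, next to that of a zinc finger gene in the same run. They are Olfr988 (chr2:85353925-85354174, minus strand), Olfr24 (chr9:18755634-18755883, minus strand), Zfp317 (chr9:19621841-19622090, plus strand) and Olfr20 (chr11:73350609-73350858, plus strand), from RefSeq in GRCm38.p6 coordinates, written 5′ to 3′ on the strand of the gene with CG dinucleotides in capitals.
Olfr988: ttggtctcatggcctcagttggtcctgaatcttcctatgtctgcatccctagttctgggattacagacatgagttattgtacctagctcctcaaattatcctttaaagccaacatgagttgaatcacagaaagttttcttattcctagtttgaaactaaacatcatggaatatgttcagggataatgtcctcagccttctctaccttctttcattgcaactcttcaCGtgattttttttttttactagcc
Olfr24: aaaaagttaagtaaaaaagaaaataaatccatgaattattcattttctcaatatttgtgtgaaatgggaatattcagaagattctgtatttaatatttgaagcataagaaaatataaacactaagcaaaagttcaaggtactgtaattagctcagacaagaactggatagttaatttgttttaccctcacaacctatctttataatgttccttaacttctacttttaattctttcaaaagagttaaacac
Zfp317: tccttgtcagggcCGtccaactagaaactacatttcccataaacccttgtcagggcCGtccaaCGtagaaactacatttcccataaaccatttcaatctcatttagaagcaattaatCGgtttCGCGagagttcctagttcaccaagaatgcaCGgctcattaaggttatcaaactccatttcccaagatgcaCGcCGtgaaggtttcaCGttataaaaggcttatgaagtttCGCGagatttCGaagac
Olfr20: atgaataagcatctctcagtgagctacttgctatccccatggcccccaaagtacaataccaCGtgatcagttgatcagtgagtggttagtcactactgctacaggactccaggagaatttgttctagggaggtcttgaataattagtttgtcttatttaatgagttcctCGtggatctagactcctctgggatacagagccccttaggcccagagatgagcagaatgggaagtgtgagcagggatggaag

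Olfr988 holds 1 CG, Olfr24 holds 0, Zfp317 holds 13 and Olfr20 holds 2. The receptor genes shown are the first of their runs with an entry. Upstream sequence was matched for 321 of the 515 receptor genes and pseudogenes of the 4 runs, with a median GC content of 31.6% and a median of 1 CG. No CG was present in 153 of them (47.7%), and 10 or more were present in 0. The 10 zinc finger genes inside or beside the runs had a median of 11.5 CG, and 10 or more were present in 6 of them. These 6 were 5 of the 7 inside or beside the proximal chromosome 9 run, and Zfp202. The 2 inside the chromosome 11 run were poor in CG, with 1 in Zfp735 and 6 in Zfp616, so of the 3 zinc finger genes inside a run Zfp317 alone held 10 or more. Among all 27025 genes with an entry the median was 6 CG, and 38.2% held 10 or more. The annotated start of a gene need not be where its transcription begins in these cells.

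The lists differed widely in length, which limits every comparison of levels between libraries. The H3K9me3 lists held 30688 to 56632 peaks in E13.5 male, 6720 to 20297 in E13.5 female and 1107 to 26281 in E10.5 cells, and the H3K27me3 lists held 359 to 23141. Sequencing depth is unknown. The 3 E10.5 H3K9me3 lists stand apart from each other, with 2903, 26281 and 1107 peaks in replicates 1, 2 and 3. In the windows, replicates 1, 2 and 3 held 661, 570 and 344 peaks in E13.5 male, 97, 185 and 57 in E13.5 female, and 21, 285 and 6 in E10.5 cells. The H3K27me3 list of E13.5 male replicate 2, with 359 peaks, had none in the windows. The unit used below is therefore the window ratio, the percentage of a window that peaks cover divided by the percentage they cover in the rest of the same chromosomes, within 1 library.

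H3K9me3 peaks covered more of the 4 windows together than of the rest of chromosomes 2, 9 and 11 in all 9 libraries. Peaks covered 8.59, 5.64 and 2.47% of the windows in E13.5 male replicates 1, 2 and 3, against 1.99, 1.09 and 0.640% of the rest. The E13.5 female libraries had 0.470, 0.929 and 0.306% in the windows, against 0.140, 0.251 and 0.0837% in the rest. The E10.5 libraries had 0.140, 4.36 and 0.0192% in the windows, against 0.0675, 1.05 and 0.0143% in the rest. The window ratios were thus 4.31, 5.16 and 3.87 in E13.5 male, 3.35, 3.71 and 3.66 in E13.5 female and 2.08, 4.14 and 1.34 in E10.5 libraries. Every E13.5 male library was above every E13.5 female one. This did not hold for peaks per Mb in place of covered share, with ratios of 4.41, 4.76 and 4.22 in E13.5 male and 3.98, 4.10 and 4.57 in E13.5 female libraries. E10.5 replicate 2 lay within the male range, and E10.5 replicates 1 and 3 lay below all the others.

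Over the 9 libraries the log2 window ratio, with 0.01 percentage points added to both shares, averaged 1.66 ± 0.65 (SD, n = 9) and was above 0 in 9 of 9. An exact two-sided sign-flip permutation test gave p = 0.00391, the smallest it can give with 9 libraries, and an adjusted p of 0.00651 over 5 tests (4 windows and their sum). This excess depended on which peaks were counted. With the 1107 highest-scoring peaks of each list, the length of the shortest one, only 3 to 6 peaks per list were left in the windows. The window ratios were then 0.713, 1.03 and 0.627 in E13.5 male, 0.310, 0.376 and 0.736 in E13.5 female, and 1.65, 2.30 and 1.34 in E10.5 replicates 1, 2 and 3. E10.5 replicates 1 and 2 were above 1 and 5 of the 6 E13.5 libraries were not. The list of E10.5 replicate 3 has 1107 peaks in all, so its ratio could not change. These ratios are of covered share. By number per Mb, the same highest-scoring peaks were denser in the windows than in the rest in all 9 libraries, which was not tested. Where the ratio of covered share was below 1, these peaks were thus longer on average in the rest. On those peaks the mean log2 ratio of covered share was -0.15, with an adjusted p of 0.708 by the same exact sign-flip permutation test. With peaks of a score of at least 20 the mean log2 ratio was 0.95 (adjusted p = 0.0391, same exact test), and E13.5 female replicate 1 (ratio 0.654) and E10.5 replicate 3 (0.812) were below 1.

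**Figure D1:**
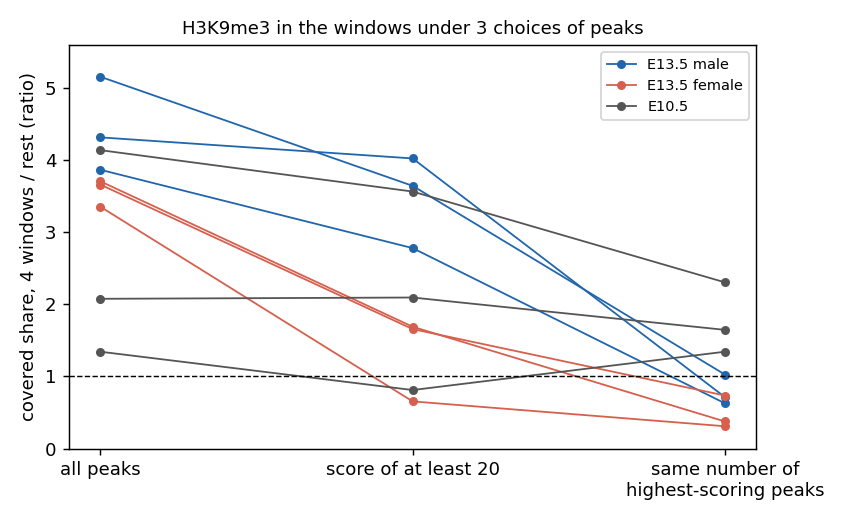
Covered share of the 4 windows over that of the rest of chromosomes 2, 9 and 11 (ratio, vertical axis) for each of the 9 H3K9me3 libraries, with all peaks, with peaks of a score of at least 20, and with the 1107 highest-scoring peaks of each list; lines join the values of 1 library and the dashed line marks equal coverage. All 9 libraries lie above 1 with all peaks (1.34 to 5.16), and 4 of 9 do with the highest-scoring peaks.

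The peaks behind the excess numbered between 6 and 661 per library. In E13.5 male replicates 1, 2 and 3 the median peak width in the windows was 908, 718 and 600 bp, against 881, 722 and 612.5 bp in the rest of the 3 chromosomes. In the E13.5 female libraries it was 451, 457 and 496 bp in the windows, against 384, 460 and 434 bp in the rest. The E10.5 libraries had 704, 1025 and 292.5 bp in the windows, against 499, 993 and 306 bp in the rest. Median widths in the windows were thus close to those elsewhere in the male libraries, and on either side of them in the others. The widest peaks lay outside the windows in all 9 libraries. By library, the widest peak spanned 633 to 17398 bp in the windows and 2456 to 74111 bp in the rest. The median score rank of window peaks within their own list was between the 22.5th and the 50.6th percentile over the 9 libraries, against the 45.8th to the 62.6th for peaks of the rest. Window peaks ranked lower than peaks of the rest in 8 of the 9 libraries, E13.5 female replicate 2 being the exception with 48.2 against 46.4. Scores are the authors' own and their scale is not known, so they serve here only to rank peaks within a list.

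The chromosome 11 window had the highest window ratios. Peaks covered 20.1, 13.2 and 5.61% of it in E13.5 male replicates 1, 2 and 3, against 1.51, 0.830 and 0.499% of the rest of chromosome 11. The ratios were 13.3, 15.9 and 11.2 in E13.5 male, 8.13, 9.50 and 9.06 in E13.5 female and 6.15, 13.53 and 3.51 in E10.5 libraries. Every male library was above every female one, and E10.5 replicate 2 lay within the male range. As peaks per Mb the 2 sexes overlapped, with ratios of 12.78, 15.21 and 12.48 in E13.5 male and 12.75, 12.06 and 21.91 in E13.5 female libraries. On the log2 scale the mean was 3.10 ± 0.79 (SD, n = 9), above 0 in 9 of 9 libraries, with an adjusted p of 0.00651 by the exact sign-flip permutation test. With the 1107 highest-scoring peaks of each list it was 0.17, with an adjusted p of 0.773 by the same exact test. The megabase at 73000001 to 74000000 had the most peak length of those on chromosome 11 in 3 libraries and was among the top 3 in 8 of 9.

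The proximal chromosome 9 window followed. Peaks covered 19.97, 14.9 and 6.11% of it in E13.5 male replicates 1, 2 and 3, against 2.38, 1.31 and 0.772% of the rest of chromosome 9. Its ratios were 8.40, 11.4 and 7.91 in E13.5 male, 7.05, 6.93 and 5.92 in E13.5 female and 4.01, 9.31 and 4.14 in E10.5 libraries. The male libraries again lay above the female ones without overlap, with E10.5 replicate 2 inside the male range. As peaks per Mb the ratio of E13.5 male replicate 3 (7.992) was level with that of E13.5 female replicate 2 (7.993). Its log2 ratios averaged 2.69 ± 0.62 (SD, n = 9) and were above 0 in 9 of 9 libraries, with an adjusted p of 0.00651 by the exact sign-flip permutation test. The call was lost with a score of at least 20 (1.48, adjusted p = 0.0703, same exact test), and the mean was -0.70 on the 1107 highest-scoring peaks (adjusted p = 0.625). The megabase at 19000001 to 20000000 was among the top 3 of the 125 on chromosome 9 in 6 of 9 libraries.

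The chromosome 2 window, which holds the largest receptor cluster of the 4, had a modest excess. Its ratios were 2.16, 2.34 and 2.04 in E13.5 male, 1.69, 2.11 and 3.25 in E13.5 female, and 1.50, 1.69 and 0 in E10.5 libraries, where replicate 3 had no peak in the window. The male and female libraries overlapped, and 8 of 9 libraries were above 1. Log2 ratios averaged 0.79 ± 0.68 (SD, n = 9) with an adjusted p of 0.0244 by the exact sign-flip permutation test. The call was lost with 0.001 percentage points added (adjusted p = 0.347), with a score of at least 20 (0.0703) and when peaks per Mb were counted (0.0879) in the same exact test. With the 1107 highest-scoring peaks it was lost too, at a mean of 0.22 (adjusted p = 0.708, same exact test). None of its 5 megabases was among the top 3 of the 182 on chromosome 2 in any of the 9 libraries.

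The distal chromosome 9 window had no excess that passed the test. Its ratios were 1.87, 1.78 and 1.39 in E13.5 male, 1.42, 1.61 and 0.702 in E13.5 female, and 0.119, 1.29 and 0 in E10.5 libraries. Ratios above 1 were found in all 3 male, 2 female and 1 E10.5 libraries. With SD and n = 9, the log2 mean was -0.05 ± 1.11 (adjusted p = 0.906, exact sign-flip permutation test). Its sign turned when E13.5 female replicate 3, E10.5 replicate 1 or E10.5 replicate 3 was left out (0.00204, 0.23 and 0.12). With a score of at least 20 it was -1.12 (adjusted p = 0.0391, same exact test), and with the 1107 highest-scoring peaks it was -1.58 (adjusted p = 0.0195).

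**Figure D2:**
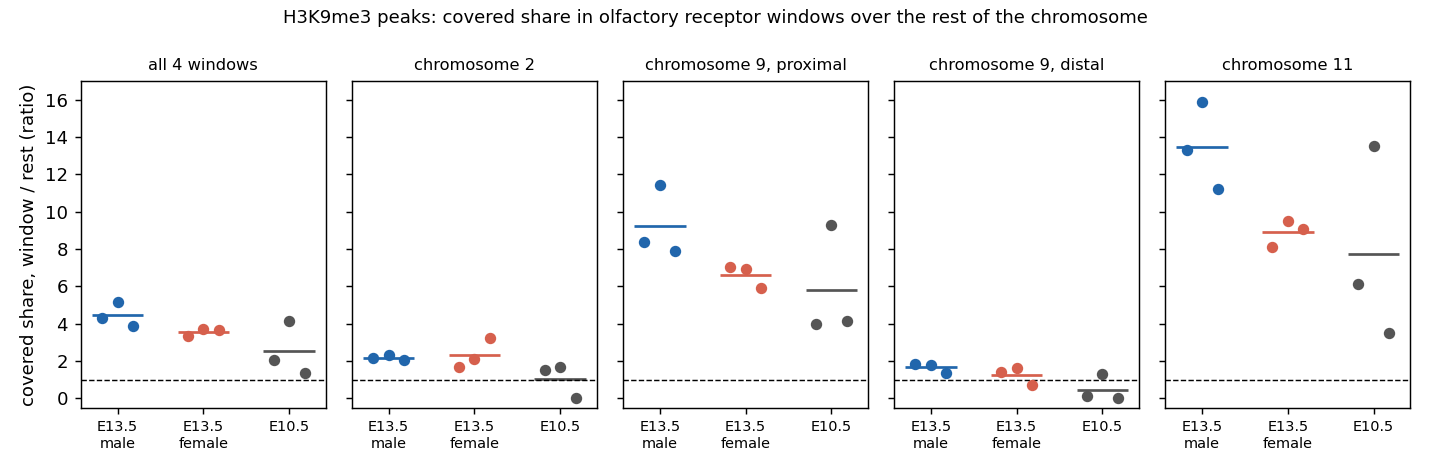
Covered share of each window over that of the rest of its chromosome (ratio, vertical axis) for the 3 H3K9me3 libraries of each group; points are libraries, bars are group means and the dashed line marks equal coverage. The chromosome 11 and proximal chromosome 9 windows reach ratios of 15.9 and 11.4, while the chromosome 2 and distal chromosome 9 windows stay at or below 3.25 and 1.87.

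The windows were then compared with each other within each library, a test chosen after the values were seen. The log2 ratio of the chromosome 11 window exceeded that of the chromosome 2 window by 2.31 ± 0.46 (SD, n = 9) and that of the distal chromosome 9 window by 3.15 ± 0.68, in 9 of 9 libraries each. The proximal chromosome 9 window exceeded the chromosome 2 window by 1.90 ± 0.51 and the distal chromosome 9 window by 2.73 ± 0.63, also in 9 of 9. Each of these differences had an adjusted p of 0.00469 over 6 pairs by exact sign-flip permutation tests. The chromosome 11 window exceeded the proximal chromosome 9 window by 0.42 ± 0.24 in 8 of 9 libraries (adjusted p = 0.00781, same exact test). Each ratio depends on the rest of its own chromosome. The covered shares themselves went both ways, at 20.1, 13.2 and 5.61% on chromosome 11 against 19.97, 14.9 and 6.11% in E13.5 male replicates 1, 2 and 3. They were 1.143, 2.153 and 0.804% against 1.189, 2.149 and 0.621% in E13.5 female, and 0.336, 11.35 and 0.0766% against 0.368, 11.79 and 0.0692% in E10.5 libraries. The chromosome 2 window exceeded the distal chromosome 9 window by 0.84 ± 0.92 in 9 of 9 (adjusted p = 0.00469, same exact test). Neither had a peak in E10.5 replicate 3, where they differed only through the rest of their chromosomes. The highest ratios belonged to the runs of 44 and 51 receptor genes and the lower ones to those of 293 and 127. Their windows span 1.2 and 1.7 Mb, and 5.2 and 2.8 Mb. The part of receptor number or window length in the ratio was not tested. The runs of the windows with the highest ratios were those that hold zinc finger genes inside; this was noticed after the values were seen, rests on 4 windows, and the part of the zinc finger genes in the ratio was not tested.

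Within the windows the peak length was uneven. In E13.5 male libraries the most covered 100-kb tile of the proximal chromosome 9 window began 1200 kb into it, at 19700001, where peaks covered 39.9% on average (16.7 to 56.2% over 3 libraries), and the same tile was the most covered in E13.5 female (3.87%) and E10.5 libraries (14.04%). The most covered tile of the chromosome 11 window began 900 kb into it, at 73900001, in both E13.5 male (33.4%) and E10.5 libraries (13.3%), and 700 kb into it in E13.5 female libraries (3.06%). On chromosome 2 the tile at 87700001 led in E13.5 male (17.6%) and E10.5 libraries (4.36%), and that at 87400001 in E13.5 female libraries (1.89%). The distal chromosome 9 window had a different leading tile in each group, none above 7.73%. The E10.5 means rest largely on replicate 2, with 39.2% in the leading tile of the proximal chromosome 9 window and 37.97% in that of chromosome 11.

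**Figure D3:**
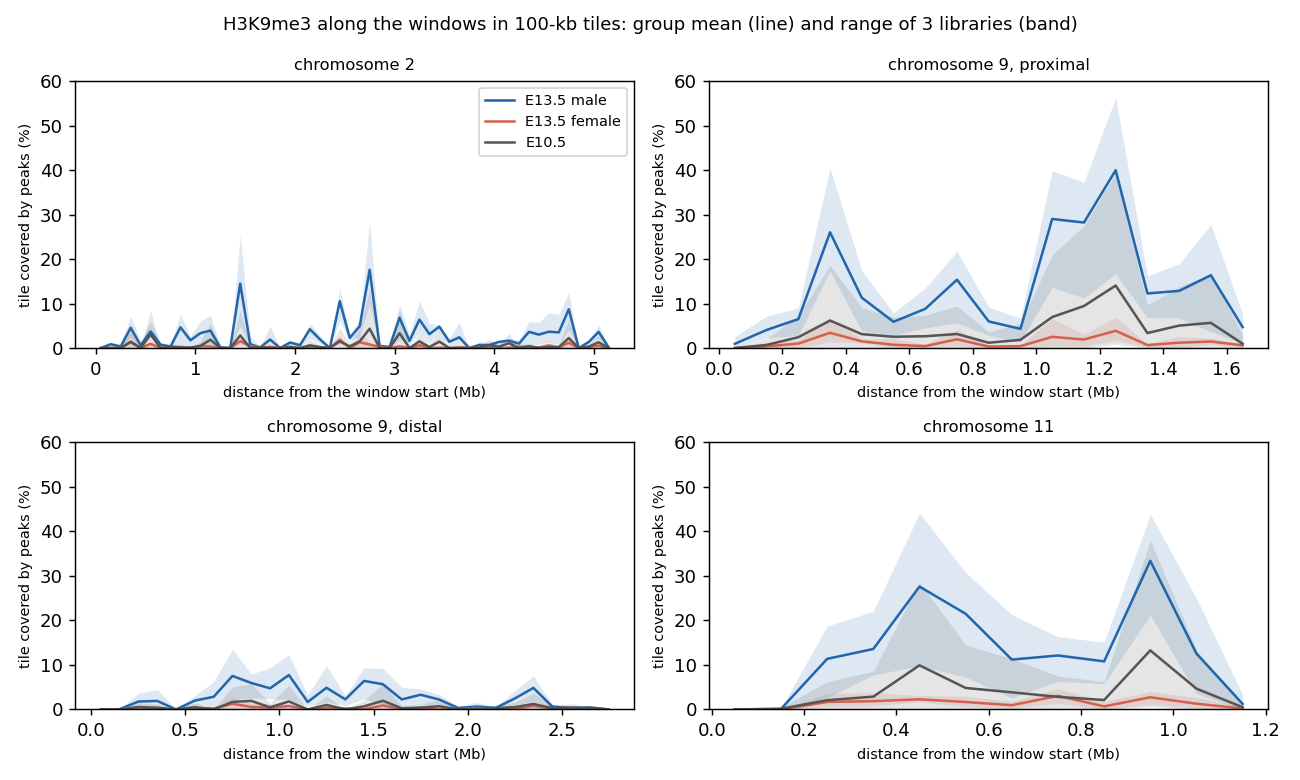
Percentage of each 100-kb tile covered by H3K9me3 peaks (vertical axis) against distance from the start of the window (horizontal axis, Mb) in the 4 windows; lines are means and bands the range of 3 libraries per group. Coverage is highest in the proximal chromosome 9 window, where the male mean reaches 39.9%, and in the chromosome 11 window, where it reaches 33.4%.

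At finer scale a bin of 10 kb was counted as held by a library when at least 1 kb of it lay in its peaks. At least 1 H3K9me3 library held 289 of the 1090 bins in the windows (26.5%), against 6.81% of the bins in the rest of the 3 chromosomes and 10.2% genome-wide. By window, 57.5% of bins on chromosome 11, 54.7% in the proximal chromosome 9 window, 16.2% on chromosome 2 and 15.4% in the distal chromosome 9 window were held by at least 1 library. No bin in the windows was held by all 9 libraries or by all 3 E13.5 female libraries. The rest of the 3 chromosomes had 6 and 15 such bins of 41678 (0.0144 and 0.0360%). At such low shares a count of 0 among 1090 window bins says little. The E13.5 male libraries held 23.1, 17.8 and 8.62% of the window bins, the E13.5 female libraries 1.47, 2.75 and 0.459%, and the E10.5 libraries 0.459, 13.03 and 0%. The values for the rest of the chromosomes were 5.95, 3.79 and 2.11% in E13.5 male, 0.305, 0.689 and 0.158% in E13.5 female, and 0.182, 3.04 and 0.0264% in E10.5 libraries. The male libraries were the highest of the E13.5 libraries both in the windows and outside them.

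**Figure D4:**
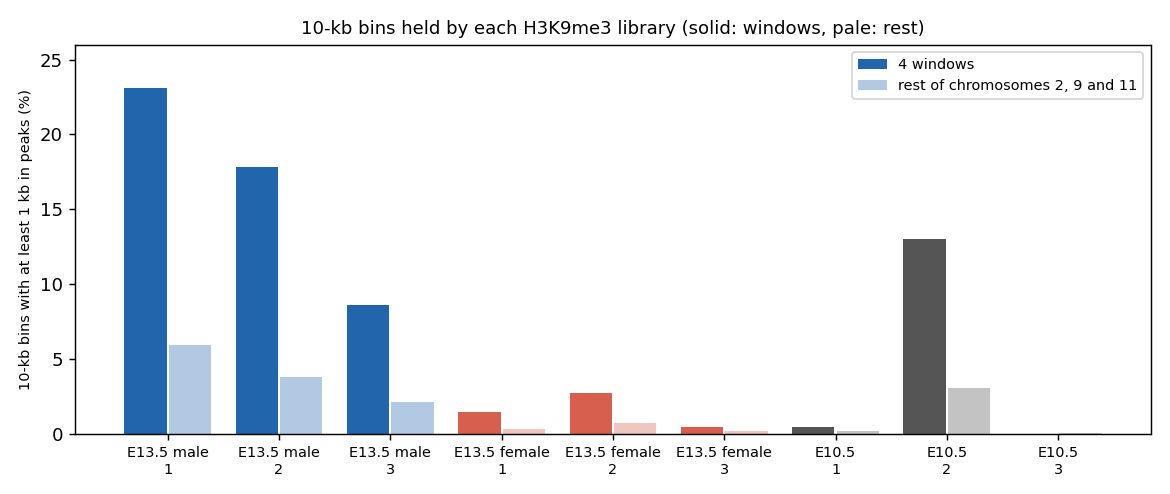
Percentage of 10-kb bins with at least 1 kb in H3K9me3 peaks (vertical axis) in the 4 windows (solid bars) and in the rest of chromosomes 2, 9 and 11 (pale bars) for each library. In each of the E13.5 libraries, and in E10.5 replicates 1 and 2, the windows are above the rest; E10.5 replicate 3 holds 0 window bins.

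All 3 E13.5 male libraries and no E13.5 female library held 49 of the 1090 window bins (4.50%), against 1.41% of bins genome-wide and 0.960% in the rest of the 3 chromosomes. These bins numbered 8 on chromosome 2, 23 in the proximal and 4 in the distal chromosome 9 window, and 14 on chromosome 11. No bin was held by all female and no male libraries, in the windows or genome-wide, and the male lists held more peaks than any female list. Male and no E10.5 libraries held 12 window bins (1.10%), against 0.356% genome-wide. All 3 male libraries held 79 window bins (7.25%) whatever the others held, against 2.49% genome-wide. Leaving out E13.5 male replicate 3 raised the male and not female bins to 133 in the windows (12.2%) and to 3.59% genome-wide. The male and not E10.5 bins then numbered 53 in the windows (4.86%), against 1.69% genome-wide. Leaving out E10.5 replicate 2 gave 74 male and not E10.5 bins in the windows (6.79%), against 2.29% genome-wide. With the 1107 highest-scoring peaks both window counts were 0, against 103 and 14 bins genome-wide (0.0390 and 0.00530%). At such low shares the counts of 0 say little. The part of list length in these counts was not tested.

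The longest male and not female runs were 70 kb each. They were picked for being held by male and no female libraries, so the gap between those 2 groups in them follows from the choice. At chr9:19670001-19740000 peaks covered 37.0, 26.1 and 14.1 kb in E13.5 male replicates 1, 2 and 3, against 2.38, 1.49 and 0.504 kb in E13.5 female libraries. The E10.5 libraries had 0.853, 27.6 and 0.591 kb there, so that replicate 2 was within the male range. At chr11:73920001-73990000 the male libraries had 36.8, 28.99 and 18.2 kb, against 1.06, 2.59 and 3.12 kb in the female libraries, and the E10.5 libraries had 1.19, 34.5 and 0.633 kb. The same picture held there, with E10.5 replicate 2 beside the male libraries. The widest H3K9me3 peaks of the windows lay at or near these places, a 17398-bp peak of E10.5 replicate 2 at chr11:73933394-73950791, a 15731-bp peak of the same library at chr9:19758454-19774184, and a 14392-bp peak of E13.5 male replicate 1 at chr9:19761978-19776369. The widest of the female libraries, at chr11:73759370-73762239, spanned 2870 bp.

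The bin held by the most libraries, 7, was chr9:19760001-19770000, under those wide peaks of the proximal chromosome 9 window. Peaks covered 9.15, 7.17 and 3.798 kb of it in E13.5 male, 1.59, 2.28 and 0 kb in E13.5 female and 1.99, 10 and 0.298 kb in E10.5 libraries. In the other windows no bin was held by more than 6 libraries, the best being chr2:87430001-87440000, chr9:38120001-38130000 and chr11:73760001-73770000. Long stretches were held by no library, though some had shorter peaks, the longest being 470 kb at chr9:39220001-39690000 in the distal chromosome 9 window, 250 kb at chr2:85550001-85800000, 240 kb at chr11:73000001-73240000 and 80 kb at chr9:19040001-19120000.

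Inside the chromosome 2 stretch lay 1 short place with high-scoring peaks of both marks. Peaks of 8 of the 9 H3K9me3 libraries, 245 to 498 bp wide, lay between chr2:85580658 and 85581155, and their scores ranked between the 84.3rd and the 99.8th percentile of their lists. H3K27me3 peaks of 4 libraries lay between 85580719 and 85581104, in E13.5 male replicate 1, E13.5 female replicate 1 and E10.5 replicates 1 and 2, at the 94.6th to the 99.6th percentile. Each of the 4 lay wholly within the H3K9me3 peak of the same group and number, an overlap that none of the other 19 H3K27me3 peaks in the windows showed. Without the peaks at this place, an alternative chosen after seeing the data, the mean log2 ratio of the chromosome 2 window was 0.76 for H3K9me3 and -3.94 for H3K27me3, and neither lost its call.

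H3K27me3 peaks were nearly absent from the windows. The 9 lists held 23 peaks there, 4 in E13.5 male, 8 in E13.5 female and 11 in E10.5 libraries, against 13017 on the rest of the 3 chromosomes. Peaks covered 0.00304, 0 and 0.0105% of the windows in E13.5 male replicates 1, 2 and 3, against 0.122, 0.0104 and 0.198% of the rest. The E13.5 female libraries had 0.00454, 0.0140 and 0.00510% in the windows, against 0.0769, 0.239 and 0.192% in the rest. The E10.5 libraries had 0.00680, 0.00354 and 0.0426% in the windows, against 1.10, 0.117 and 1.94% in the rest. The windows were below the rest in 9 of 9 libraries, with window ratios of 0 to 0.0591.

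For H3K27me3 the mean log2 ratio was -3.54 ± 1.44 (SD, n = 9), with an adjusted p of 0.00391 by the exact sign-flip permutation test, and the 4 windows taken singly gave means of -3.36 to -3.82 with the same adjusted p in that exact test. Windows without any peak take their log2 value from the 0.01 percentage points added, so the size of these means is set in part by that constant. Such a value is always below 0, however few peaks the list holds. Of the 9 libraries, 2 had no peak in the chromosome 2 window, 6 and 7 in the proximal and distal chromosome 9 windows, and 5 on chromosome 11. At the peak density of the rest, E13.5 male replicate 2 would have had 1.67 peaks over the 4 windows, so its 0 says little. Over the 4 windows the mean was -4.74 with 0.001 and -1.65 with 0.1 percentage points added, and -1.09 with the same number of highest-scoring peaks per list. The call was kept in all 3 (adjusted p of 0.00391, 0.00391 and 0.00651 in the same exact test). In the last setting, though, each list had 0 or 1 peak in the windows, beside 49 to 87 in the rest. E13.5 male replicates 2 and 3, E13.5 female replicate 2 and E10.5 replicate 3 had 0, which gives a value below 0 in any case. The call kept in that setting therefore adds little. On chromosome 11, H3K27me3 peaks recurred near the window's start, at chr11:73141113-73141345 in E13.5 female replicate 3 and overlapping it in E13.5 female replicate 2 and E10.5 replicate 3. No H3K9me3 library had a peak over any of these 3. The 3 E13.5 male peaks away from the shared chromosome 2 place were in replicate 3, at chr9:37761737-37762021, chr9:38882096-38882640 and chr11:73093025-73093341, and the last of them overlapped a peak of E10.5 replicate 3.

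Set side by side within the same group and number, the log2 window ratio was higher for H3K9me3 than for H3K27me3 in 9 of 9 pairs in every window. This ratio depends on the rest of the chromosome as well as on the window. In E10.5 replicate 3 the covered share itself was lower for H3K9me3 over the 4 windows (0.0192% against 0.0426% for H3K27me3), on chromosome 2 (0% against 0.0114%) and on chromosome 11 (0.0766% against 0.284%). Neither mark had a peak in the distal chromosome 9 window of that replicate, so this pair differed there only through the rest of the chromosome. The difference in log2 window ratio averaged 5.20 ± 0.98 (SD, n = 9) over the 4 windows together, 4.44 ± 1.36 on chromosome 2, 6.26 ± 0.94 in the proximal and 3.77 ± 1.16 in the distal chromosome 9 window, and 6.47 ± 1.61 on chromosome 11. Each had an adjusted p of 0.00391 over 5 tests by an exact sign-flip permutation test. In the distal chromosome 9 window, where H3K9me3 itself was not above the rest of the chromosome, the difference came with H3K27me3 below it. With the same number of highest-scoring peaks per list, 1107 for H3K9me3 and 359 for H3K27me3, the difference over the 4 windows was 0.94 (adjusted p = 0.186, same exact test). With 0.1 percentage points added it was 3.05 (adjusted p = 0.00391, same exact test).

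**Figure D5:**
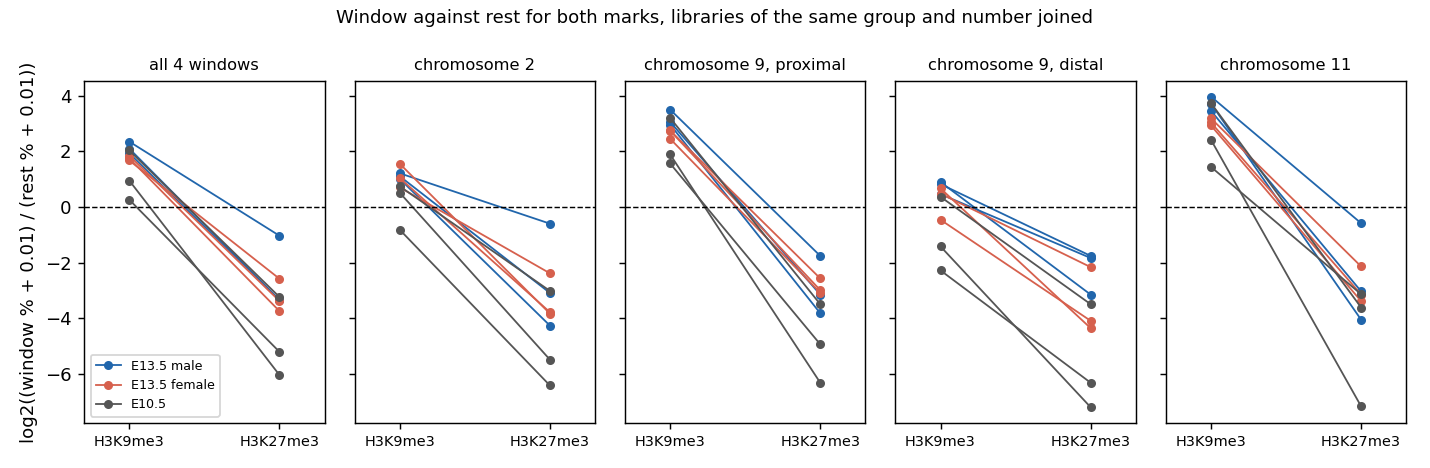
Log2 ratio of covered share in the windows to that in the rest of the chromosome, with 0.01 percentage points added to both (vertical axis), for H3K9me3 (left) and H3K27me3 (right); lines join libraries of the same group and number, and the dashed line marks equal coverage. Every line falls to the right in every window, by 5.20 on average over the 4 windows.

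Between the groups, no difference in H3K9me3 window ratio passed the test. Over the 4 windows the log2 ratio averaged 2.13 ± 0.21 in E13.5 male libraries (SD, n = 3) and 1.76 ± 0.0863 in E13.5 female libraries (SD, n = 3), a difference of 0.37. The E10.5 mean was 1.09 ± 0.89 (SD, n = 3). The male and female libraries did not overlap over the 4 windows together, in the proximal chromosome 9 window (difference 0.53) or in the chromosome 11 window (difference 0.66), each with p = 0.1, the smallest that an exact permutation test of 3 against 3 libraries can give, and an adjusted p of 0.25. With peaks per Mb in place of covered share, they did overlap over the 4 windows together and on chromosome 11. E13.5 libraries of both sexes exceeded E10.5 libraries by 0.96 in the chromosome 2 window (means 1.11 and 0.15) and by 1.59 in the distal chromosome 9 window (means 0.48 and -1.11), each with p = 0.0238 and an adjusted p of 0.238 over 20 exact permutation tests. Those 2 were the only tests under an unadjusted p of 0.05, and all 20 differences were above 0. In the distal chromosome 9 window E10.5 replicates 1 and 3 had 1 and 0 peaks, so the added constant weighs on their values. E10.5 replicate 2, the longest E10.5 list, had a log2 ratio of 2.04 over the 4 windows, against means of 2.13 in E13.5 male and 1.76 in E13.5 female libraries. Against that replicate alone, with no test, E13.5 libraries were higher by 0.36 in the chromosome 2 window and 0.11 in the distal chromosome 9 window. In the other windows they were lower, with differences of -0.29 in the proximal chromosome 9 window and -0.35 on chromosome 11. Over the 4 windows together the difference was -0.0928. The 3 comparisons with E10.5 share its libraries.

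For H3K27me3, 0 of 20 exact permutation tests between groups passed after adjustment and 2 were under an unadjusted p of 0.05. Over the 4 windows the log2 ratio averaged -2.57 ± 1.34 in E13.5 male libraries and -3.23 ± 0.60 in E13.5 female libraries, with SD and n = 3. The E10.5 mean was -4.83 ± 1.44. E10.5 replicates 1 and 3, the libraries with the most H3K27me3 peak length in the rest of the chromosomes, were the lowest at -6.04 and -5.21, while E10.5 replicate 2 was at -3.23, within the range of the E13.5 libraries.

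The share of each library's peak length per megabase was tested across the genome with limma, on log2(ppm + 100), where ppm is the bases of peak in the bin per megabase of peak in the library. For H3K9me3, 0 of the 11 megabases that lie at least 50% in a window were called in any of 4 comparisons, as were 0 of all 2516 tested (0.0% in each). At an unadjusted p under 0.05 limma gave 1 window megabase for E13.5 male against E13.5 female and 5 for E13.5 against E10.5, where all bins gave 182 and 377. The median log2 change over the 11 was 0.42 for E13.5 male against E13.5 female and 0.83 for E13.5 against E10.5, beside 0.34 and 0.33 over all megabases. The largest of the 11 for E13.5 against E10.5 was on chromosome 2 at 87000001 to 88000000, 2.15 with SE 0.57 higher in E13.5 than in E10.5 libraries, with a limma adjusted p of 0.222. At chromosome 9, 19000001 to 20000000, E13.5 male exceeded E13.5 female by 0.95 with SE 0.37 (limma adjusted p = 0.624). Without E10.5 replicate 2, limma called 333 of all 2516 megabases for E13.5 against E10.5, and 4 of the 11 in the windows. For E13.5 male against E10.5 it called 337 of 2516 and 4 of the 11. For E13.5 female against E10.5 it called 208 of 2516 and 3 of the 11. Because limma pools the spread over the groups, leaving out E10.5 libraries also moved male against female, with 6 megabases called without replicate 3 and 1 without replicate 2, 0 of them in the windows. For H3K27me3 only 3 window megabases had peaks in 3 or more libraries and none was called, beside 0.0574% of all 1743 for E13.5 male against E13.5 female, 0.344% for E13.5 against E10.5 and 0.688% for E13.5 male against E10.5. Without E10.5 replicate 2 the H3K27me3 calls were 29 for male against female (1 higher and 28 lower in male) and 40 for E13.5 male against E10.5 (2 higher and 38 lower in male), again with 0 in the windows.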

How the data were processed

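H3K9me3 and H3K27me3 were mapped in 18 ChIP libraries, and the 13 input libraries of the labels were not used here. Per the submitters' processing notes the tools included MACS2 2.1.0, BWA 0.7.5a, deepTools 3.3.0 and CASAVA 1.8.4, besides SAMtools and Picard, with mm9 as the build. Peaks were called per library against an input, per the peak names in the files, and that of the third H3K27me3 library of E10.5 cells was named as an input made for H3K9me3. One E10.5 input for H3K9me3 (replicate 2) has E13.5 in its stage label. Not given in the sources used here were the peak threshold and the treatment of reads that map to several places. Some receptor genes are recent duplicates and H3K9me3 covers repeats, so that treatment could change the peaks called in the windows. The deposited score of a peak is the authors' own value of unknown scale, used only to rank or filter peaks.

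Peaks, none of which overlapped another of its own list, were clipped to the windows and divided by length, with each chromosome taken to its last peak end. Shares in windows and rest were compared as log2((window % + 0.01)/(rest % + 0.01)) by exact sign-flip tests over 9 libraries, groups by exact permutation tests, each with Benjamini-Hochberg adjustment. Megabases with peaks in at least 3 of 9 libraries were tested with limma 3.58.1 (R 4.3.3) on all bins, after a test on simulated data. Regions named are the longest runs of 10-kb bins held by the most, by male and not female, or by no libraries, the widest peaks, and the H3K27me3 peaks of groups with 5 or fewer. Replicate numbers were not shown to pair the libraries across groups. The windows, members and lists were chosen with earlier results of these data known. Alternatives covered the constants, score cuts, equal peak numbers, bin sizes and left-out libraries. Python 3.11.15 was used. Since the labels do not say that replicates were separate cell collections, p-values cover only library-to-library spread, possibly technical.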

Additional observations from a re-analysis of the deposited data

How the results depend on the processing

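Over the 4 windows, the H3K9me3 excess kept its call under the other constants, a score of at least 20 (0.95, adjusted p = 0.0391 by the exact sign-flip permutation test), counting peaks per Mb, leaving 1 Mb on either side out of the rest, and leaving out each library (1.57 to 1.83). It did not in the covered share of the 1107 highest-scoring peaks per list (-0.15). In that setting the difference between the marks was 0.94 over the 4 windows and -0.000942 in the distal chromosome 9 window. The cause was not tested. Leaving out each library gave 0.69 to 0.99 on chromosome 2, 2.58 to 2.83 and -0.17 to 0.23 in the proximal and distal chromosome 9 windows, 2.996 to 3.31 on chromosome 11, -3.86 to -3.23 for H3K27me3 and 4.98 to 5.43 for the difference between the marks. The proximal chromosome 9 mean was -0.70 with the highest-scoring peaks. The distal chromosome 9 mean was 0.23 with 0.1 percentage points added and 0.24 as peaks per Mb. Without the shared chromosome 2 place, an alternative chosen after seeing the data, no call of a window against the rest changed.

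Several differences between groups, none of which passed the test, changed sign. With a score of at least 20, E13.5 minus E10.5 was -0.38 in the proximal chromosome 9 window and -0.22 on chromosome 11, and E13.5 female minus E10.5 was -0.62 over the 4 windows, -2.12 and -0.0386 in the proximal and distal chromosome 9 windows and -0.80 on chromosome 11. With the highest-scoring peaks, E13.5 male minus E13.5 female was -0.80 on chromosome 2 and -0.52 in the distal chromosome 9 window, and -0.0863 for H3K27me3. On those peaks E13.5 minus E10.5 was -1.17 over the 4 windows, -0.82 on chromosome 2, -0.40 in the distal chromosome 9 window and -2.55 on chromosome 11. E13.5 female minus E10.5 was -1.42 over the 4 windows, -0.42 on chromosome 2, -0.34 and -0.14 in the proximal and distal chromosome 9 windows and -3.15 on chromosome 11. E13.5 male minus E10.5 was -0.93 over the 4 windows, -1.22 on chromosome 2, -0.66 in the distal chromosome 9 window and -1.95 on chromosome 11. E13.5 male minus E13.5 female was -0.0475 on chromosome 2 with 0.001 percentage points added and -0.0707 on chromosome 11 as peaks per Mb. Leaving out each library, it was -0.19 to 0.24 on chromosome 2 and -0.11 to 1.05 for H3K27me3 over the 4 windows, and E13.5 female minus E10.5 was -0.0244 to 1.12 on chromosome 11. Against E10.5 replicate 2 alone, chosen after seeing the data and with no test, E13.5 was -0.0928 and E13.5 female -0.28 over the 4 windows.

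Counts of megabases called by limma also moved. For H3K9me3, male against female was 3 with 1000 ppm added, 1 in 250-kb bins, 4 with a score of at least 20 and 20 with the highest-scoring peaks, and 0 to 6 with a library left out (6 without E10.5 replicate 3). E13.5 against E10.5 was 4 in 250-kb bins and 3 with the highest-scoring peaks, and 0 to 333 with a library left out. E13.5 female against E10.5 was 30 with 1000 ppm, 20 with peaks in at least 6 of 9 libraries, 40 in 250-kb bins, 1 with a score of at least 20, 8 with the highest-scoring peaks and 0 to 208 with a library left out. E13.5 male against E10.5 was 7 with the highest-scoring peaks and 0 to 337 with a library left out. Of the 11 window megabases, 0 to 4, 0 to 3 and 0 to 4 were called with a library left out in these comparisons. For H3K27me3 the counts of male against female were 0 with 10 ppm, 7 with 1000 ppm, 3 with no filter, 0 in 250-kb bins, 7 with a score of at least 20 and 1 to 29 with a library left out (29 without E10.5 replicate 2). Those of E13.5 against E10.5 were 3 with 10 ppm, 12 with 1000 ppm, 19 with no filter, 2 with peaks in at least 6 libraries, 19 in 250-kb bins, 42 with a score of at least 20 and 2 with the highest-scoring peaks. Those of E13.5 female against E10.5 were 5 with 1000 ppm, 4 with no filter, 10 with a score of at least 20 and 2 with the highest-scoring peaks. Those of E13.5 male against E10.5 were 0 with 10 ppm, 21 with no filter, 2 with peaks in at least 6 libraries, 21 in 250-kb bins and 3 with the highest-scoring peaks. Leaving out a library gave 0 to 9 for E13.5 against E10.5, 0 to 6 for E13.5 female against E10.5 (6 without E13.5 male replicate 2) and 0 to 40 for E13.5 male against E10.5 (40 without E10.5 replicate 2).

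Of the 10-kb window bins, those held by male and no female libraries numbered 1 with at least 50% of the bin, 20 of 50-kb bins, 4 with a score of at least 20, 0 with the highest-scoring peaks and 50 to 133 with an E13.5 library left out. As shares of the window bins these were 0.0917, 9.17, 0.367 and 0%, and 4.59 to 12.2%. With any overlap there were 57 (5.23%). Bins of that kind genome-wide numbered 128, 2536, 290 and 103 in the same settings, 5176 with any overlap and 3897 to 9481 with an E13.5 library left out, the highest without E13.5 male replicate 3. Their genome-wide shares were 0.0485, 4.80, 0.110 and 0.0390%, 1.96% with any overlap and 1.48 to 3.59% with an E13.5 library left out. Those held by male and no E10.5 libraries numbered 39 with any overlap, 1, 4, 0 and 0 in the same settings and 12 to 74 with a male or E10.5 library left out, beside 3634, 8, 744, 26 and 14 genome-wide and 943 to 6041 with such a library left out. In shares these were 3.58, 0.0917, 1.83, 0 and 0% and 1.10 to 6.79% in the windows. The genome-wide shares were 1.38, 0.00303, 1.41, 0.00984 and 0.00530% and 0.357 to 2.29%. Those held by at least 1 library numbered 436 with any overlap, 56, 133, 89 and 7, and 222 to 289 with a library left out, beside 18.2, 1.81, 29.5, 3.33 and 0.368% of all bins.

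Libraries of the same replicate number were not shown to be paired, since the correlation of their deviations over megabases was -0.0574 to 0.119 for H3K9me3 and -0.212 to 0.204 for H3K27me3. With the replicate number as a block, E13.5 male minus E13.5 female in H3K9me3 was still 0.37. An exact sign-flip permutation test over the 3 differences by replicate number gave an adjusted p of 0.357, and with 3 differences it cannot go under 0.05. With that block limma called 0 megabases for E13.5 against E10.5 and 1 for E13.5 male against E10.5 in H3K27me3. The marks differed in every window also without pairing (highest adjusted p 0.000206, exact permutation test). The shares rest on few peaks in the shorter lists, 6 in the windows for E10.5 replicate 3, and read depth is unknown.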
